A study of Homo sapiens with 12 samples.

Results

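The transcripts described here encode 10 proteins that restrain the RAS-ERK pathway and whose genes are, in many cells, switched on by ERK itself: the phosphatases DUSP4, DUSP5, DUSP6 and DUSP7, the Sprouty proteins SPRY1, SPRY2 and SPRY4, and the Sprouty-related proteins SPRED1, SPRED2 and SPRED3. They were chosen by gene symbol, and all 10 were found among the 60603 genes of the count table. Each lies on a different chromosome (8, 10, 12 and 3 for DUSP4, DUSP5, DUSP6 and DUSP7, 4, 13 and 5 for SPRY1, SPRY2 and SPRY4, and 15, 2 and 19 for SPRED1, SPRED2 and SPRED3).

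Poly(A) RNA was sequenced from T24, an established bladder carcinoma line known for an activating HRAS mutation, in 12 libraries that form 4 groups of 3. The groups were WT cells with no treatment, WT cells with 5-Ad-IAA, cells of genotype NS1 with no treatment, and NS1 cells with 5-Ad-IAA. The series concerns AlissAID, in which an auxin-like inducer, here 5-Ad-IAA, sends an untagged protein to degradation through a binding protein that recognises it. The labels do not spell out NS1, a name also borne by a synthetic RAS-binding protein, nor do they say whether the NS1 cells are 1 clone or what drives the construct. Such a system acts on protein, so that transcript counts cannot check whether a protein was degraded. Dose and duration of the treatment are not analysed here. Nothing in the labels says that replicates came from separate cultures, so p-values measure the spread between these libraries, which may be technical.

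In this pathway active RAS recruits RAF kinases, RAF activates MEK, and MEK phosphorylates ERK, which enters the nucleus and raises the transcription of many genes. Among these are its own inhibitors: the DUSP phosphatases remove the activating phosphates from ERK, Sprouty proteins act between the receptors and RAF, and SPRED proteins bring the RAS-inactivating protein neurofibromin to the membrane. Because the loop is transcriptional, the levels of DUSP6 and SPRY4 mRNA are in wide use as readouts of ERK output.

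The libraries held 10593934 to 20266996 counts, and replicates were unevenly spaced. Libraries of replicate 1 differed from the other two of their group by a chi-square per degree of freedom of 17.6 to 30.6, whereas replicates 2 and 3 differed by 3.03 to 18.2. The epithelial keratins KRT7, KRT8, KRT18 and KRT19 ranged from 175 to 6020 CPM over the libraries, and GATA3 and PPARG, factors of urothelial cells, from 22.2 to 106 CPM. The urothelial genes KRT5 and UPK3A had 0 counts in every library, and CDH1, UPK1B and KRT20 had at most 2. EPCAM, a further epithelial gene, had 10 to 96 counts and UPK2, a urothelial gene, 14 to 42. The mesenchymal genes VIM, CDH2 and ZEB1 spanned 16.7 to 191 CPM. The leukocyte genes PTPRC and CD3E had at most 1 count and LYZ at most 5. The fibroblast genes DCN, LUM and PDGFRA had at most 3 counts, but COL1A1 had 12 to 85. The endothelial genes PECAM1 and CDH5 had 1 to 47 and 0 to 25.

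In NS1 cells 4 of the 9 feedback inhibitors that could be tested were lower with the inducer: SPRY4 fell 2.17-fold, DUSP4 1.81-fold, DUSP6 1.78-fold and SPRY2 1.73-fold. No member was called in WT cells given the same compound, nor was any of all genes tested. A direct test of the difference in response between the lines, given below with its other fits, called 0 of 9 members. The remaining members, DUSP5, DUSP7, SPRED1, SPRED2 and SPRED3, were fitted lower in treated NS1 cells by smaller amounts that did not pass the test. SPRY1 was close to undetected in all groups. In RNA from whole cultures, fewer cells with a transcript and less of it per cell cannot be told apart. A gene was called when its Benjamini-Hochberg adjusted p over 17775 genes, from edgeR's quasi-likelihood test, was under 0.05. Of all genes tested, 3.39% were called lower and 2.76% higher in this comparison. With library totals in place of TMM scaling these became 759 genes lower and 370 higher, from 603 and 490, with the same 4 members called. The median log2 fold change of the 9 members was -0.52, against 0.01 over all genes, and 9 of 9 members were fitted lower, against 49.2% of all genes.

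In the same comparison 2 marker genes were called, both higher. GATA3 rose from 30.9 ± 3.31 CPM (28.6 to 34.7) in untreated to 78.2 ± 23.3 CPM (60.3 to 105) in treated NS1 cells (SD, n = 3; 1.34 log2, SE 0.32, edgeR adjusted p = 0.0281), without overlap, while WT libraries held 22.2 to 50.1 CPM. PECAM1 went from 1 to 5 counts per library in untreated to 21 to 34 in treated NS1 cells (3.19 log2, SE 0.75, edgeR adjusted p = 0.0251). The summed level of the 7 urothelial markers was 97.5 to 114 CPM in untreated and 148 to 213 CPM in treated NS1 libraries, with KRT5 and UPK3A at 0, and that of the 2 endothelial markers 0.0617 to 0.436 and 1.14 to 2.99 CPM. CDH2 was at 138 ± 6.92 and 177 ± 15.2 CPM (edgeR adjusted p = 0.092). The part of these shifts in the members' changes was not tested.

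**Figure D1:**
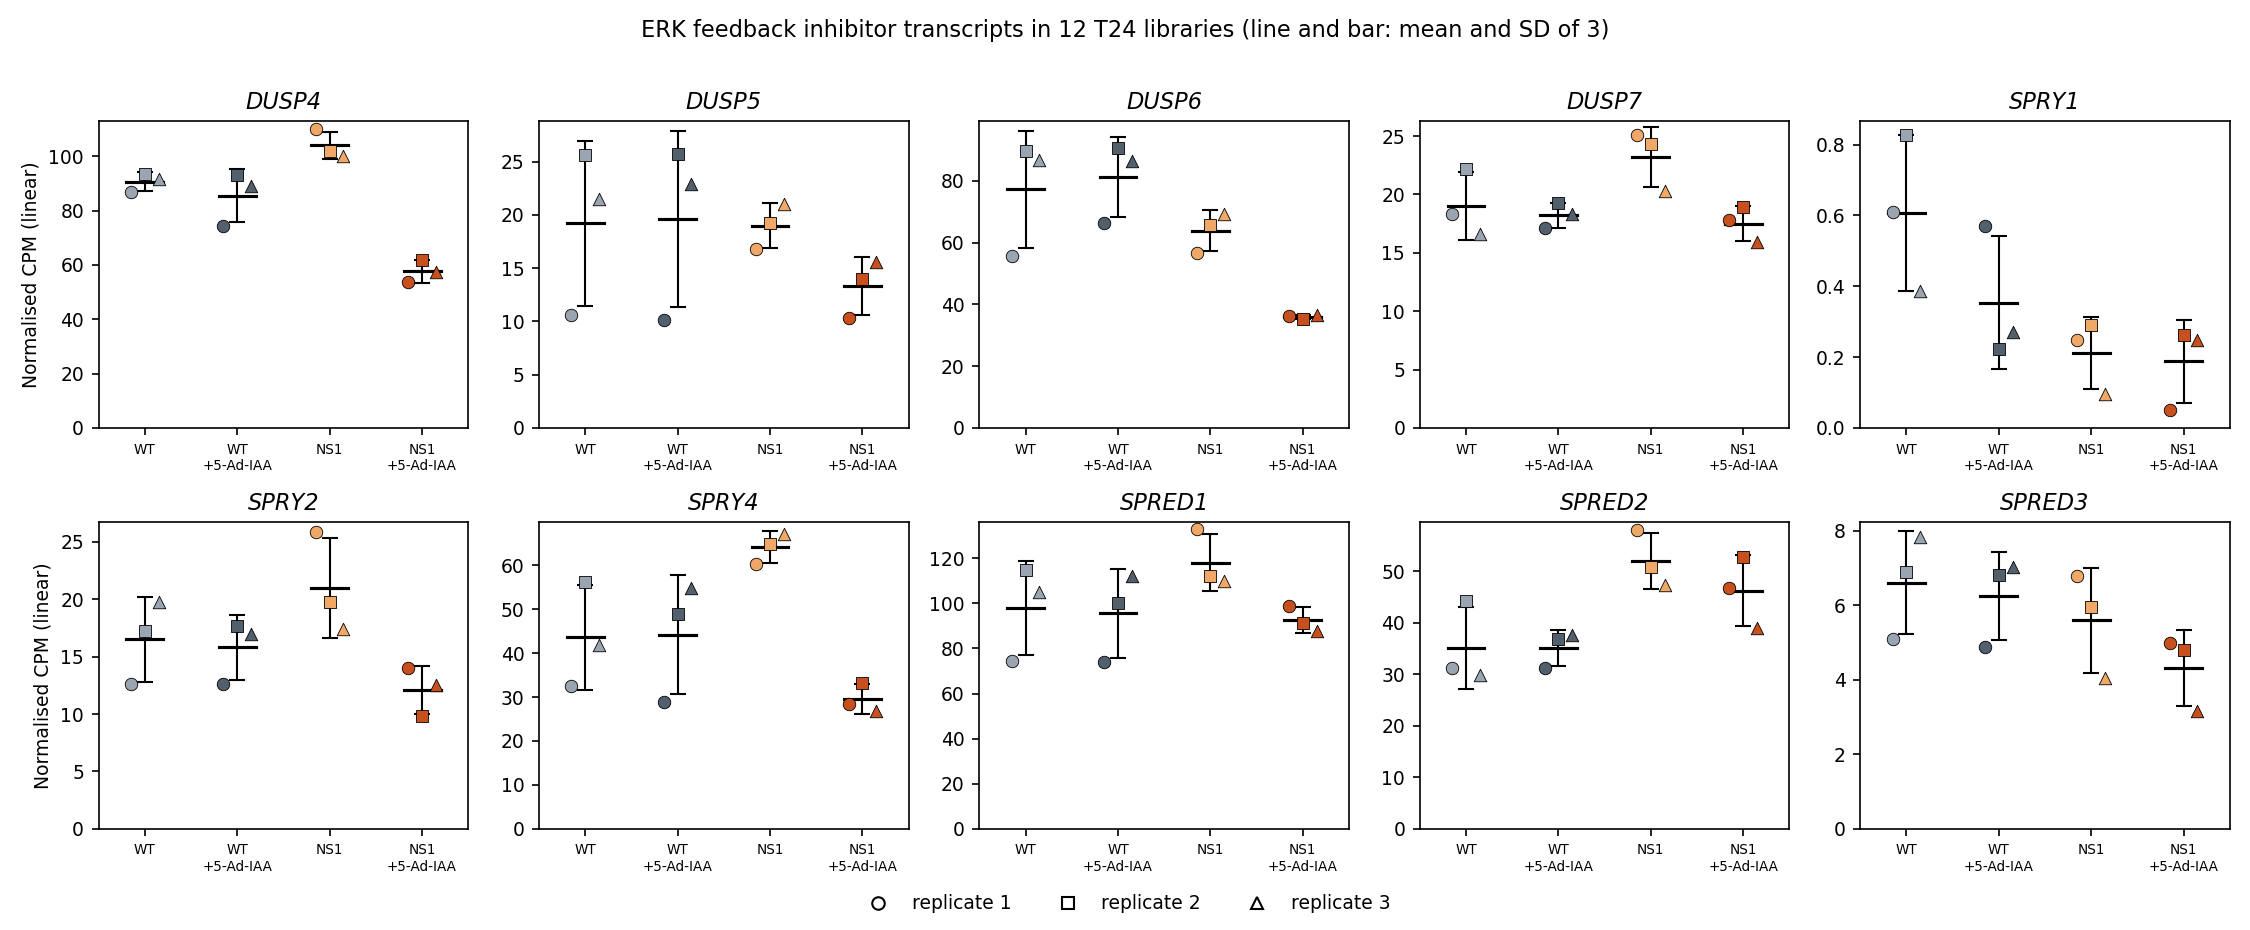
Normalised CPM of the 10 transcripts in each of the 12 libraries (vertical axis, linear, starting at 0), by group; symbols mark the replicate number, horizontal lines the mean and bars the SD of 3 libraries. For DUSP4 and DUSP6 the 3 treated NS1 libraries lie below all 9 other libraries, and for SPRY1 no library exceeds 0.826 CPM.

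DUSP4 encodes an inducible nuclear phosphatase that acts on ERK and on other MAP kinases. Its normalised level in replicates 1, 2 and 3 was 110, 102 and 100 CPM in untreated NS1 cells and 53.6, 61.8 and 57.3 CPM in treated NS1 cells. In WT cells it was 87.0, 93.5 and 91.7 CPM without treatment and 74.5, 93.2 and 89.0 CPM with 5-Ad-IAA. The treated NS1 libraries were thus below every other library, and the untreated NS1 libraries above every other. Treated NS1 cells differed from untreated ones by -0.85 log2 (SE 0.10, edgeR adjusted p = 0.0017). DUSP4 was the member with the smallest SE, and its call held when each NS1 library was left out in turn, with adjusted p from 0.00324 to 0.0166.

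DUSP6, a cytoplasmic phosphatase with a strong preference for ERK, had 56.5, 65.6 and 69.4 CPM in untreated and 36.1, 35.3 and 36.4 CPM in treated NS1 libraries. The WT libraries held 55.6, 89.8 and 86.7 CPM without and 66.5, 90.6 and 86.5 CPM with the inducer. Treated NS1 cells were the lowest group with no overlap, and their SD of 0.572 CPM was below the 18.9 CPM of untreated WT cells, where replicate 1 was low. The fold change in NS1 cells was -0.83 log2 (SE 0.17, edgeR adjusted p = 0.0143). This call was lost when any of 4 NS1 libraries was left out: untreated replicate 2 (adjusted p = 0.055) or 3 (0.0618), and treated replicate 2 (0.0533) or 3 (0.0602). Exons of DUSP6 overlap those of an antisense gene, ENSG00000274021, over 1875 bases, and the use of strand in counting is not given in the sources used here, so reads of the pair cannot be told apart. The antisense gene held 20.8 ± 1.93 CPM (SD, n = 3) in untreated and 11.9 ± 0.965 CPM in treated NS1 cells, a change of -0.81 log2 (SE 0.19, edgeR adjusted p = 0.0225).

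DUSP5, a nuclear phosphatase that also anchors ERK there, had 16.8, 19.2 and 21.0 CPM in untreated and 10.3, 14.0 and 15.6 CPM in treated NS1 libraries. WT libraries spread over 10.6, 25.6 and 21.5 CPM without and 10.1, 25.7 and 22.9 CPM with the inducer. Replicate 1 held the lowest DUSP5 value in all 4 groups, and the treated and untreated NS1 libraries did not overlap. The log2 fold change was -0.52 (SE 0.34), with an edgeR adjusted p of 0.438. DUSP7, a cytoplasmic ERK phosphatase related to DUSP6, had 25.1, 24.3 and 20.3 CPM in untreated and 17.8, 18.9 and 15.9 CPM in treated NS1 libraries. WT libraries held 16.6 to 22.2 CPM in both treatments. The NS1 groups did not overlap, and the log2 fold change was -0.41 (SE 0.13, edgeR adjusted p = 0.0918).

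SPRY4, a Sprouty protein that inhibits signalling upstream of RAF, had the lowest log2 fold change of the tested members. Its libraries held 60.2, 64.8 and 67.2 CPM in untreated NS1 cells and 28.5, 33.3 and 26.8 CPM in treated NS1 cells. WT libraries held 32.6, 56.1 and 41.9 CPM without and 28.9, 48.9 and 54.9 CPM with the inducer. The untreated NS1 libraries were above every other library, and the treated NS1 libraries overlapped the WT range at its low end, again replicate 1. The log2 fold change in NS1 cells was -1.12 (SE 0.22, edgeR adjusted p = 0.012), and 0.624% of all genes had a lower one. Without treated NS1 replicate 3 it was -1.05 with an adjusted p of 0.0649. SPRY4 occupies chromosome 5, 142310427 to 142326455, in GENCODE 29 on GRCh38.

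SPRY2, which binds the ubiquitin ligase CBL and the adaptor GRB2, held 25.9, 19.8 and 17.4 CPM in untreated and 14.0, 9.86 and 12.5 CPM in treated NS1 libraries. WT libraries held 12.6, 17.2 and 19.8 CPM without and 12.6, 17.7 and 17.0 CPM with the inducer. The NS1 groups did not overlap, but both overlapped the WT range. Its log2 fold change of -0.79 (SE 0.21, edgeR adjusted p = 0.0414) was close to the threshold. The call was lost without any NS1 library other than treated replicate 1, with adjusted p from 0.0564 to 0.153, and without WT libraries of untreated replicate 2 (0.0535) or of treated replicate 2 (0.0563) or 3 (0.0581).

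SPRY1 had 13, 11 and 4 counts in untreated WT libraries, 12, 3 and 3 in treated WT, 4, 4 and 1 in untreated NS1 and 1, 3 and 3 in treated NS1 libraries. With the floor of detection set at 3 counts per library, treated NS1 cells were at or below it throughout. It did not pass the filter on low counts and was not tested, so that statements on tested members concern the other 9.

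The fitted changes of the SPRED transcripts were the smallest of the 9. SPRED1, the most abundant SPRED per kilobase of exon in all 4 groups, had 133, 112 and 110 CPM in untreated and 99.0, 91.1 and 87.7 CPM in treated NS1 libraries, and 74.0 to 115 CPM over the WT libraries. The NS1 groups did not overlap, yet the log2 fold change of -0.35 (SE 0.17) had an adjusted p of 0.264 in edgeR. SPRED2 held 58.0, 50.9 and 47.4 CPM in untreated and 46.8, 52.9 and 39.0 CPM in treated NS1 libraries, which overlapped (-0.17 log2, SE 0.16, edgeR adjusted p = 0.61). SPRED3, on chromosome 19 at 38388421 to 38399587 and low in all groups, held 6.79, 5.96 and 4.04 CPM in untreated and 4.99, 4.80 and 3.16 CPM in treated NS1 libraries. Those groups also overlapped, with -0.38 log2 (SE 0.25, edgeR adjusted p = 0.439).

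Counted by overlap alone, 7 of the 9 tested members had all 3 treated NS1 libraries below all 3 untreated ones, against 14.0% of all genes tested. SPRED2 and SPRED3 were the exceptions. The ratio of treated to untreated CPM in libraries of the same number was below 1 in all 3 NS1 pairs for every tested member other than SPRED2. It ranged over 0.489 to 0.604 for DUSP4, 0.524 to 0.639 for DUSP6, 0.399 to 0.514 for SPRY4 and 0.499 to 0.716 for SPRY2. It was 0.613 to 0.745 for DUSP5, 0.709 to 0.786 for DUSP7, 0.744 to 0.814 for SPRED1, 0.735 to 0.806 for SPRED3 and 0.807 to 1.04 for SPRED2. The ranges of called and other members were not separate, as SPRY2 overlapped DUSP5 and DUSP7, and DUSP6 overlapped DUSP5.

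**Figure D2:**
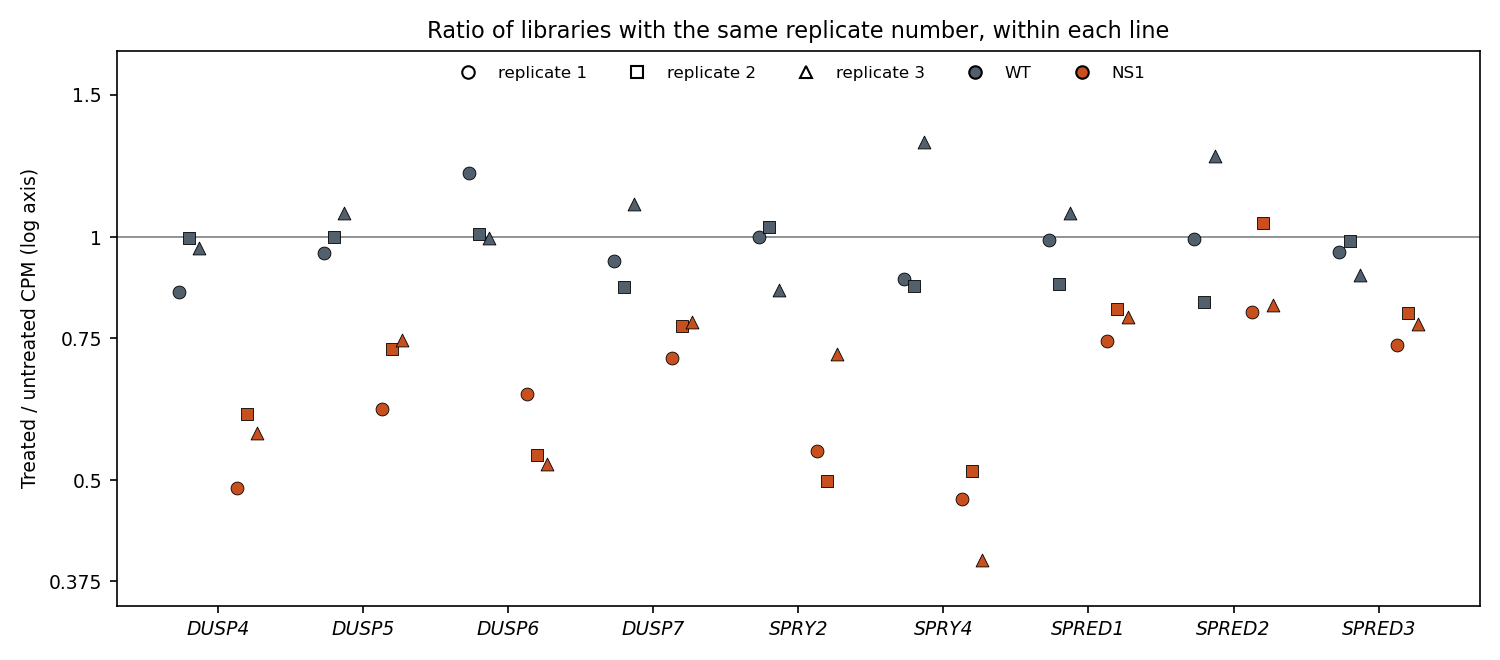
Ratio of treated to untreated CPM (vertical axis, log scale) for libraries with the same replicate number, in WT cells (grey) and NS1 cells (orange), for the 9 tested members; the line marks a ratio of 1. NS1 ratios of DUSP4, DUSP6, SPRY2 and SPRY4 lie between 0.399 and 0.716, and WT ratios of all 9 members between 0.831 and 1.31.

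The labels number the replicates but do not state that treated and untreated libraries were paired. As an alternative, pairs by number were assumed, in a fit with a replicate block within each line (a term for each number in each line). With this block 7 members were called lower in NS1 cells with inducer, against 12.8% of all genes. The additional calls were DUSP5 at -0.53 log2 (SE 0.10, edgeR adjusted p = 0.000912), DUSP7 at -0.41 (SE 0.09, 0.00438) and SPRED1 at -0.35 (SE 0.07, 0.00264). SPRED2 (adjusted p = 0.228) and SPRED3 (0.0613) were not called with the block either. Leaving out replicate 1 in all groups kept the calls of DUSP4, DUSP6, SPRY2 and SPRY4 and no other, with 11.4% of all genes called in either direction. Without replicate 2, or without replicate 3, edgeR called 0 members and 0 genes, while 2047 and 2048 genes stood at an unadjusted p under 0.05. The fold changes of the 4 members there were -0.92 and -0.87 for DUSP4, -0.79 and -0.76 for DUSP6, -0.71 and -0.92 for SPRY2, and -1.20 and -1.01 for SPRY4.

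In WT cells the question was whether 5-Ad-IAA alters the same transcripts without the NS1 genotype. Values of the 9 tested members were within 0.09 log2 of no change, from -0.09 for DUSP4 to 0.07 for DUSP6, with a median of -0.04 against 0.00 over all genes. edgeR called 0 members and 0.0% of all genes, with 94 genes and 0 members at an unadjusted p under 0.05, and DESeq2 also called 0 genes, with 22 under that level. No tested member had WT groups without overlap, against 1.73% of all genes for lower values with inducer. The SE of these changes ran from 0.10 for DUSP4 to 0.34 for DUSP5 and bound how small a change could have been seen. Ratios of same-numbered libraries in WT cells ran from 0.831 for SPRED2 to 1.31 for SPRY4.

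**Figure D3:**
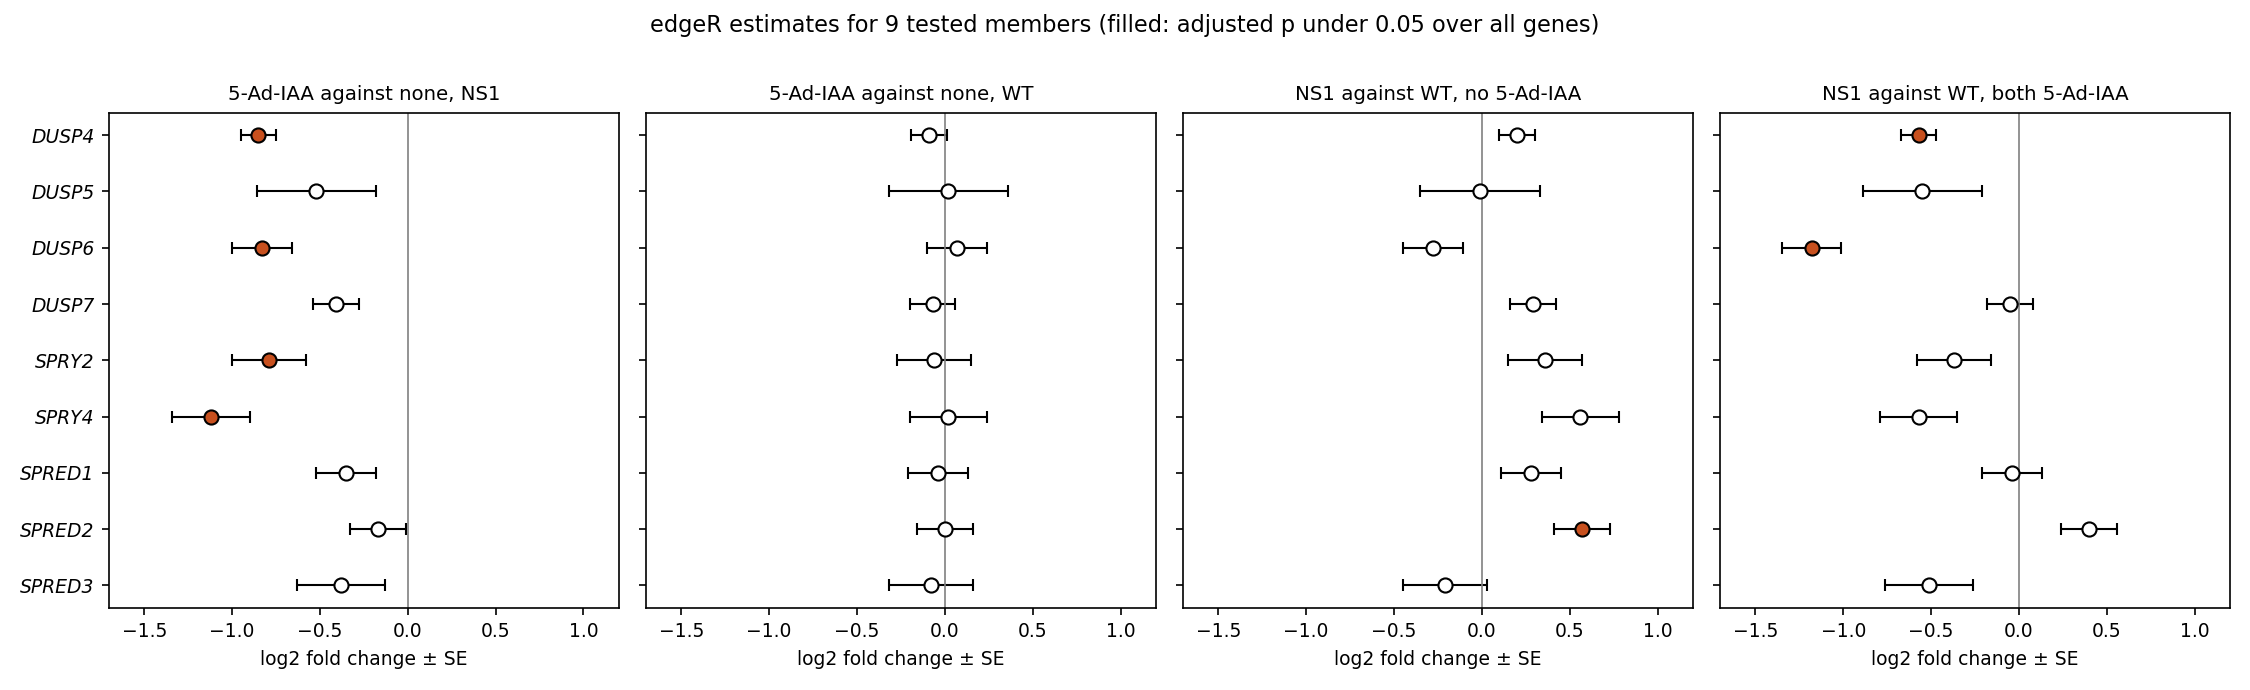
log2 fold change (horizontal axis) with its SE from edgeR for the 9 tested members in 4 comparisons; filled points have an adjusted p under 0.05 over all genes. The inducer column for NS1 cells holds 4 filled points, from -1.12 to -0.79, and the one for WT cells none, with values from -0.09 to 0.07.

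The interaction of genotype and inducer compares the response of NS1 cells with that of WT cells. In the unblocked edgeR fit 0 of 9 members passed, and 4 genes in all did (0.0225%), while 4 members and 2196 genes had an unadjusted p under 0.05. The difference between the effects in NS1 and WT cells was -0.77 log2 for DUSP4 (SE 0.15, adjusted p = 0.0638), -0.90 for DUSP6 (SE 0.24, 0.121), -1.13 for SPRY4 (SE 0.31, 0.138) and -0.73 for SPRY2 (SE 0.29, 0.322). With the replicate block within each line 5 members passed, against 7.06% of all genes. These were SPRY4 (-1.11, adjusted p = 0.000273), DUSP4 (-0.76, 0.000417), DUSP6 (-0.91, 0.000176), SPRY2 (-0.75, 0.00457) and DUSP5 (-0.54, 0.0138). Without replicate 1 the unblocked fit called 3 members, DUSP4 (-0.74, adjusted p = 0.0148), DUSP6 (-0.92, 0.00578) and SPRY4 (-1.21, 0.0128), with 3.24% of all genes called. DESeq2 called DUSP4, DUSP6 and SPRY4 as well, among 377 genes.

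The lines were also compared before treatment. SPRED2 was the 1 member called, higher in untreated NS1 than in untreated WT cells, where its libraries held 31.3, 44.3 and 29.8 CPM. The log2 difference was 0.57 (SE 0.16, edgeR adjusted p = 0.0349), in a comparison where 5.45% of all genes were called higher and 7.05% lower. The call was lost without any untreated NS1 library, without untreated WT replicate 1 or 3, and without treated WT replicate 2, with adjusted p from 0.0503 to 0.119. DUSP4, SPRY4 and SPRED2 had untreated NS1 libraries above all untreated WT libraries, against 14.8% of all genes. For SPRY4 the difference was 0.56 (SE 0.22, edgeR adjusted p = 0.117), which was called without untreated WT replicate 2 (0.79, 0.0483) or treated WT replicate 1 (0.56, 0.0431), and for DUSP4 0.20 (SE 0.10, 0.235). DUSP6 stood at -0.28 (SE 0.17, edgeR adjusted p = 0.32), and was called lower, at -0.39, when replicate 1 was left out (0.0144) and, at -0.47, without untreated WT replicate 1 alone (0.0492). The median of the 9 members was 0.28 log2, against 0.00 over all genes. Among the marker genes, KRT19 (0.78 log2, edgeR adjusted p = 0.0312) and CDH2 (0.58, 0.00679) were called higher in untreated NS1 than in untreated WT cells. EPCAM (-1.76, 0.0155) and VIM (-1.20, 0.00159) were called lower. The part of these marker differences in the members' values was not tested.

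With inducer in both lines, DUSP4 and DUSP6 were called lower in NS1 than in WT cells, by -0.57 (SE 0.10, edgeR adjusted p = 0.00145) and -1.18 log2 (SE 0.17, 0.000333). The call of DUSP4 was lost without replicate 2 (0.053) or 3 (0.0607) in all groups. Of all genes, 14.5% were called lower and 13.6% higher here, or 3182 and 1863 genes with library totals in place of the 2581 and 2426 with TMM. At a share close to the 22.2% of all genes, DUSP4 and DUSP6 were the 2 of 9 tested members whose treated NS1 libraries lay below all treated WT libraries. SPRED2 lay above them, against 21.2% of all genes, with a difference of 0.40 (SE 0.16, edgeR adjusted p = 0.0824), which was called without untreated WT replicate 2 (0.39, 0.0396) or treated NS1 replicate 3 (0.51, 0.0495). SPRY4 differed by -0.57 (SE 0.22, edgeR adjusted p = 0.0721), a value close to the threshold. It was called in 4 of 7 alternative settings with all libraries, namely with library totals (adjusted p = 0.0383), DESeq2 (0.0446), no filter on low counts (0.000791) and one block term per replicate number (0.0274), and also without treated WT replicate 1 (-0.81, 0.00747) or untreated WT replicate 1 (-0.58, 0.0488). SPRY2, DUSP5 and SPRED3 were fitted at -0.37, -0.55 and -0.51, and DUSP7 and SPRED1 at -0.05 and -0.04, none of them called. DUSP5 was called without treated WT replicate 1 (-0.88, edgeR adjusted p = 0.0428). Without replicate 1 the calls were 6, all lower: DUSP4, DUSP5, DUSP6, SPRY2, SPRY4 and SPRED3, with 34.0% of all genes called in either direction. The 2 comparisons between lines and the 2 inducer comparisons share libraries, so these values are not independent of each other.

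Compared per kilobase of exon (union of GENCODE 29 exons), DUSP6 had the highest level in untreated WT cells at 16.7 ± 4.09 CPM per kb (SD, n = 3), followed by DUSP4 at 12.5 ± 0.46 and SPRED1 at 11.9 ± 2.54. DUSP5, SPRED2, SPRY4 and SPRY2 followed between 7.35 and 5.44 CPM per kb, DUSP7 had 3.37 ± 0.509, SPRED3 1.13 ± 0.236 and SPRY1 0.153 ± 0.0554. From DUSP6 to SPRY2, neighbours in this order overlapped between libraries, and from SPRY2 downward each was separate from the next. The separation of SPRY2 and DUSP7 depended on the length used: per kilobase of the longest transcript they had 6.1 ± 1.36 and 5.7 ± 0.861. In treated NS1 cells the order began with SPRED1 (11.2 ± 0.701) and SPRED2 (8.97 ± 1.35), and DUSP4 (7.93 ± 0.563) and DUSP6 (7.75 ± 0.124) came after them. The SPRED2 libraries (7.57 to 10.3) overlapped those of DUSP4 (7.39 to 8.52) and DUSP6 (7.61 to 7.85) there. In counts, SPRY4 amounted to 0.55 ± 0.08 (SD, n = 3) of SPRED1 in untreated and 0.32 ± 0.04 in treated NS1 libraries, against 0.44 ± 0.04 and 0.46 ± 0.06 in untreated and treated WT libraries. The DUSP4 to DUSP6 count ratio was 1.65 ± 0.26 and 1.6 ± 0.14 in untreated and treated NS1 cells, and 1.22 ± 0.30 and 1.06 ± 0.05 in WT cells.

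**Figure D4:**
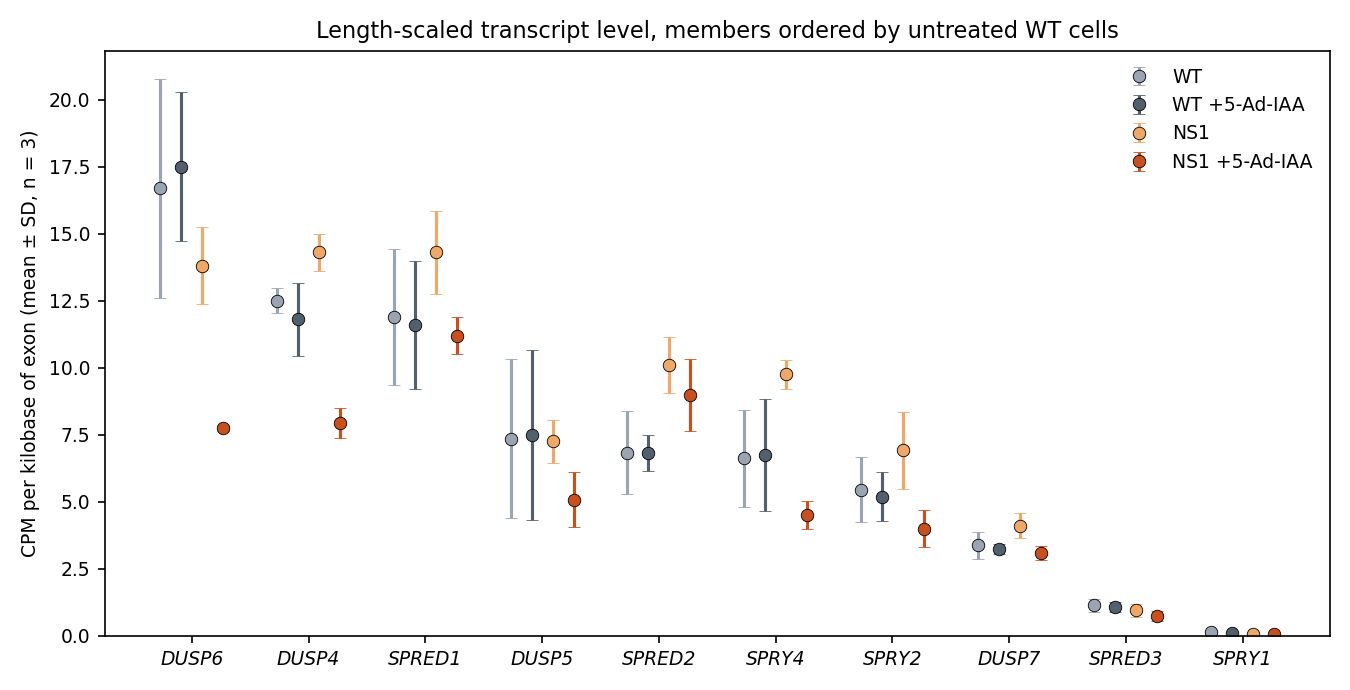
Mean CPM per kilobase of exon (vertical axis, linear, starting at 0) with SD of 3 libraries for each member in the 4 groups, in the order of untreated WT cells. DUSP6 is at 16.7 in untreated WT cells and at 7.75 in treated NS1 cells, and SPRED1 lies between 11.2 and 14.3 in the 4 groups.

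Likeness of profiles was measured over the 12 libraries as the root mean square difference of log2 CPM, each gene centred on its own mean, among 16497 genes with a mean of at least 1 CPM. Nearest to DUSP6 was its antisense partner ENSG00000274021 (0.070), then PHLDA1 (0.078), itself a transcript induced by ERK, and PHLDA1-AS1 (0.113), against a median of 0.548 over all genes. Nearest to DUSP4 was ZWINT (0.075), a kinetochore protein, then SLC45A3 (0.123) and ENSG00000284946 (0.123), with a median of 0.413. ZWINT had mean levels of 76.7 and 74.1 CPM in untreated and treated WT cells and of 91.4 and 48.6 CPM in untreated and treated NS1 cells. SPRY4 was nearest to FAM167A (0.117), whose means were 56.7, 56.7, 82.5 and 32.7 CPM in the same order, and then to RGMB (0.224) and ENSG00000279232 (0.227), with a median of 0.542. SPRY2 was nearest to CLCN2 (0.158), then to UBE2S (0.165) and CLGN (0.170), with a median of 0.443. Among the 9 tested members themselves, DUSP7 and SPRED1 were closest at 0.180 and DUSP6 and SPRED2 farthest at 0.676. Pairs of members are far fewer than the 16497 genes ranked, so their smallest difference cannot be set against those of the nearest genes.

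Promoters were examined because several members fell together. RefSeq windows on GRCh38.p14, of 250 bases before to 50 after a start, were held for 8 of the 10 members, DUSP4 and DUSP5 being the ones without. The motifs searched on both strands were CCGGAA, the core bound by ETS factors, TGANTCA, bound by AP-1, and TGACGTCA, bound by CREB; none of these overlaps another in the windows shown. CCGGAA was in 17.2% of 35116 windows of this length and in 2 of 13 member windows, 1 each of SPRY1 and SPRY2. TGANTCA was in 7.71% of windows and in 2 of 13, 1 each of SPRED2 and SPRED3, and TGACGTCA was in 1.85% and in 0 of 13. No match to these letters was in the windows of DUSP6, DUSP7, SPRY4 and SPRED1. Shown are a member that fell and a member that did not pass the test, each upstream of a RefSeq start on the minus strand: SPRY2 at chr13:80341127-80341376 with CCGGAA in capitals, whose first base has position -142 from the start, and SPRED2 at chr2:65366778-65367028, up to the first transcribed base, with a TGANTCA match in capitals.
SPRY2: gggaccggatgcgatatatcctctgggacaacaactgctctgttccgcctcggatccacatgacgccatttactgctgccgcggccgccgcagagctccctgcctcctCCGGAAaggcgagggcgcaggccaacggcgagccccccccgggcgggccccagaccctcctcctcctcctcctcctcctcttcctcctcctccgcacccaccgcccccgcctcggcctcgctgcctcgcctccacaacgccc
SPRED2: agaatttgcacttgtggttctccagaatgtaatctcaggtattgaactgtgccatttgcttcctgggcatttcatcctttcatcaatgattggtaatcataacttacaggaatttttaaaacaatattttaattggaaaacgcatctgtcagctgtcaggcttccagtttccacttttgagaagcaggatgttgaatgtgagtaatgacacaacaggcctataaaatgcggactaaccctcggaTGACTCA
The window at another SPRED2 start further upstream, chr2:65432550-65432849, had no match to these letters, nor had the other SPRY2 windows. A match is a run of letters in these windows and was not tested as a binding site.

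Of 6 other MAP kinase phosphatases, 4 passed the filter on low counts, and 2 of these rose with inducer in NS1 cells by edgeR and by DESeq2. Of all genes, edgeR called 2.76% higher. DUSP16, a phosphatase of JNK and p38, rose by 1.36 log2, from 9.97 ± 3.08 to 25.5 ± 8.58 CPM (SD, n = 3; SE 0.27, edgeR adjusted p = 0.0119). DUSP8, which acts on the same kinases, rose from 1.11 ± 0.216 to 2.65 ± 0.0535 CPM, by 1.25 log2 (SE 0.28, edgeR adjusted p = 0.0194), on 12 to 50 counts per library. When each of the 12 libraries was left out in turn, DUSP16 kept its call other than without treated NS1 replicate 2 or 3 (adjusted p up to 0.0519), and DUSP8 other than without replicate 2 or 3 of either NS1 group (up to 0.0963). DUSP8 was at 1 to 7 counts in WT libraries and was higher in untreated NS1 than WT cells (2.05 log2, SE 0.37, edgeR adjusted p = 0.004). It passed the filter on low counts only through the NS1 libraries, where it is higher, which limits this comparison between lines. DUSP1 was fitted at -0.38 (SE 0.29, edgeR adjusted p = 0.53), and was called with the replicate block within each line (0.000776), and DUSP10 stood at 0.22 (SE 0.31, 0.768). The median of the 4 was 0.73 log2.

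**Figure D5:**
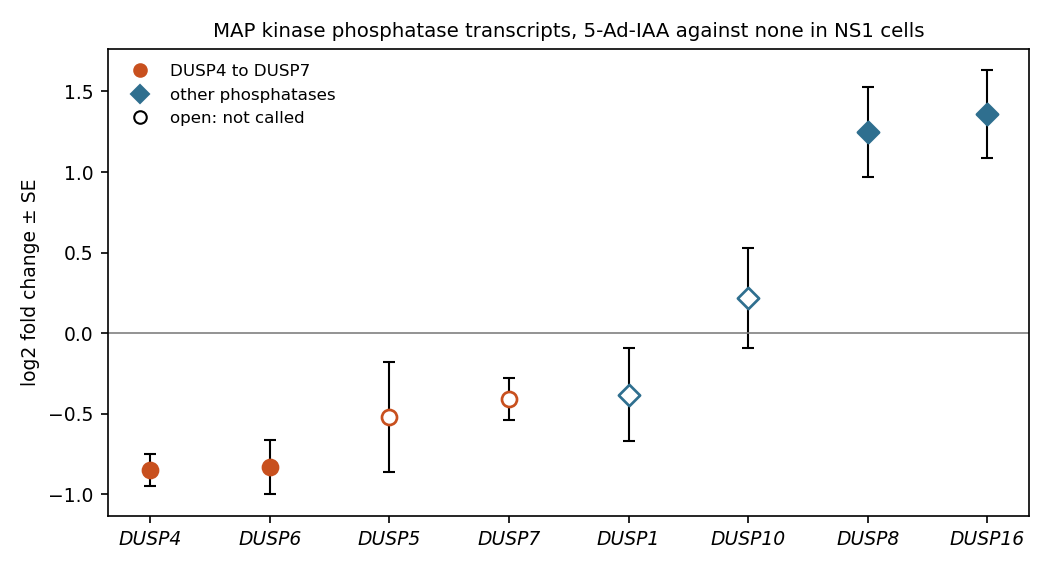
log2 fold change with SE (vertical axis) of MAP kinase phosphatase transcripts with inducer in NS1 cells, for the 4 member phosphatases (circles) and 4 others (diamonds); open symbols are not called. DUSP4 and DUSP6 are called at -0.85 and -0.83, and DUSP8 and DUSP16 at 1.25 and 1.36.

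Among 9 other negative regulators of receptor and RAS-ERK signalling, 1 was called with inducer in NS1 cells. Of all genes, 2.76% were called higher and 3.39% lower in this comparison. CBLB, a ubiquitin ligase for activated receptors, rose from 6.83 ± 1.88 to 18.8 ± 2.81 CPM (SD, n = 3), by 1.45 log2 (SE 0.22, edgeR adjusted p = 0.00378). The list's median was 0.08. ERRFI1, an inhibitor of the EGF receptor, was fitted at -0.48 (SE 0.17, edgeR adjusted p = 0.122) and was called with the replicate block within each line (0.000217). Of 8 kinases and scaffolds of the cascade itself, 0 were called by edgeR and 0 by DESeq2, with 2 at an unadjusted p under 0.05 and a median of 0.18. With the replicate block within each line edgeR called 3 of the 8, against 25.9% of all genes in either direction. These were MAPK3, the kinase ERK1, at 0.35 log2 (adjusted p = 0.00201), MAP2K2, or MEK2, at 0.27 (0.0337) and MAP2K1, or MEK1, at -0.34 (0.00295). Of 11 transcripts known as ERK targets outside the members, 4 fell and 1 rose, against 3.39% and 2.76% of all genes. Their median was -0.52 log2. This list, like the others, was written with results of these data known. ETV4, an ETS factor, fell from 13.7 ± 0.791 to 6.28 ± 1.26 CPM (-1.14 log2, SE 0.20, edgeR adjusted p = 0.00742). FOSL1, a subunit of AP-1, fell from 181 ± 3.07 to 95.2 ± 5.48 CPM (-0.93, SE 0.18, 0.0115), PHLDA1 from 282 ± 34.1 to 156 ± 8.66 CPM (-0.85, SE 0.17, 0.0132) and ETV5 from 81.5 ± 2.82 to 56.8 ± 5.49 CPM (-0.52, SE 0.14, 0.0456). EPHA4, an ephrin receptor, rose from 3.65 ± 1.00 to 14.6 ± 9.21 CPM (2.00, SE 0.36, 0.00799). Its treated libraries held 25.2 CPM in replicate 1 and 9.86 and 8.72 CPM in the others, and without that replicate the change was 1.32 log2 (0.0078). ETV4 and EPHA4 were called in all 12 fits that left out 1 library. Without replicate 2 or 3 in all groups edgeR called 0 genes. The adjusted p there was 0.177 and 0.219 for ETV4, and 0.184 and 0.191 for EPHA4. With the replicate block within each line 7 of the 11 were called lower by edgeR, against 12.8% of all genes. The additional ones were ETV1 (-0.76, adjusted p = 9.44e-05), an ETS factor, IER3 (-0.44, 0.000487) and EPHA2 (-0.39, 0.00262), an ephrin receptor. FOSL1 was not called without treated NS1 replicate 3 (edgeR adjusted p = 0.0607), nor PHLDA1 without that library or untreated NS1 replicate 2 or 3 (up to 0.0667). ETV5 was called in 3 of 12 fits, those without untreated WT replicate 1 or 2 or treated WT replicate 1 (up to 0.131 in the others). ETV4 was also lower in untreated NS1 than in untreated WT cells (-1.09 log2, SE 0.19, edgeR adjusted p = 0.00303). Of the 11 targets, 9 were fitted lower there, and edgeR called 2 of them and DESeq2 1. Of the tested members, 6 were fitted higher there, DUSP4 and SPRY4 among them, and 3 lower, DUSP6 among them. SPRED2 was the 1 member called.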

How the data were processed

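The authors deposited raw counts of reads for each gene in 12 libraries. STAR 2.7.3a, featureCounts 1.6.4 and hg38 are named in the submitters' processing notes; settings, annotation and strand are not given in the sources used here. Symbols matched 60306 of 60603 identifiers, and 43869 had the same version in GENCODE 29, to which the printed gene starts and ends (SPRY4 and SPRED3) are limited; chromosomes, exon lengths and the DUSP6 overlap come for the other members from GENCODE 29 models of another version. Genes were filtered with filterByExpr (17775 kept), scaled by TMM and fitted with edgeR 4.0.16 in R 4.3.3 (limma 3.58.1, DESeq2 1.42.0), as a mean per group over all libraries, with 2-sided quasi-likelihood tests. The SE is the log2 fold change divided by the square root of F. The filter, scaling, tool, samples, block and replicates were varied.

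Named are the 10 members, the called genes of 4 lists (up to 5 per list) and the 3 nearest genes by profile to DUSP4, DUSP6, SPRY2 and SPRY4. Members and lists were chosen with earlier results of these data known. ENSG00000274021, DUSP1, DUSP10, ERRFI1, the kinases, ETV1, IER3, EPHA2 and the marker genes given with a test were named after their values were seen. A marker gene of the cell type lists is not reported here. Correlations of same-numbered libraries, as deviations from group means, were 0.752, 0.385 and 0.256 in WT and 0.713, 0.386 and 0.384 in NS1. Across lines they were 0.006 to 0.19. With 3 libraries per mean, a shared deviation of replicate 1 also raises the values of replicates 2 and 3. Deviations of differently numbered libraries were not compared. Pairs within a line were thus an assumption of the fit with the block within each line, and the labels do not state them. On simulated data with 200 of 17775 genes changed, the inducer test in NS1 cells recovered 57 of 100 genes changed 2-fold and 92 of 100 changed 4-fold, with 6 false calls, and the interaction test 26 and 81 with 10. The detection floor covers counting error only, and reads carry no molecular identifiers.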

Additional observations from a re-analysis of the deposited data

Results flagged for a closer look

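For 5 members the inducer effect differed between NS1 and WT cells by a test of the difference itself, in the edgeR fit whose replicate block runs within each line. This difference (NS1 minus WT, log2) was -1.11 for SPRY4, -0.76 for DUSP4, -0.54 for DUSP5, -0.91 for DUSP6 and -0.75 for SPRY2. Of all genes, 7.06% were called lower by this test in that fit, which assumes pairs by number that the labels do not state. In the unblocked fit none of the 5 passed, where the adjusted p lay between 0.0638 (DUSP4) and 0.748 (DUSP5).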

How the results depend on the processing

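The 4 members called in NS1 cells were the same with RLE size factors, library totals, at least 10 counts in every library, DESeq2 and a fit of the compared groups only. With no low-count filter 1801 genes were called in NS1 cells with inducer, with DUSP5 as an additional member, with one term per replicate number as a replicate block 2421, and with the replicate block within each line 4596, with 7 members. Leaving out replicates gave 0 to 2021 genes and 0 to 4 members. The interaction gave 7 genes with RLE size factors, 683 genes and 3 members without the filter, 33 genes with at least 10 counts in every library, and 377 genes and 3 members with DESeq2. It gave 634 genes and 3 members with the replicate block, 2495 genes and 5 members with the block within each line, and 0 to 573 genes and 0 to 3 members without a replicate. Between lines without inducer, 3908 genes (22.0%) were called with the replicate block, with 2 members. The members called there were 0 with library totals, 0 with the compared groups only and 2 without the filter (8.74% of all genes), and leaving out replicates gave 182 to 3466 genes and 0 to 2 members. Between lines with inducer, 5 members were called without the filter (16.1% of all genes), 4 with the replicate block (37.5%), and 3 with library totals (28.4%) and with DESeq2 (28.2%), SPRY4 being added in each, and leaving out replicates gave 1632 to 6007 genes and 1 to 6 members. The cause of these shifts was not tested.

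Signs of near-zero values changed. In WT cells with inducer, SPRY4 was at 0.0 log2 with the replicate block within each line, and SPRED2 at 0.0 with RLE size factors and with DESeq2 and at 0.01 with either replicate block. Between lines without inducer, DUSP5 was at 0.07 with the replicate block. Leaving out replicates in WT cells moved DUSP4 over -0.15 to 0.01, DUSP5 over -0.28 to 0.35, DUSP6 over -0.12 to 0.2, DUSP7 over -0.15 to 0.06, SPRY2 over -0.24 to 0.09, SPRY4 over -0.19 to 0.26, SPRED1 over -0.2 to 0.12, SPRED2 over -0.15 to 0.2 and SPRED3 over -0.25 to 0.08. Between lines without inducer DUSP5 moved over -0.32 to 0.27 and SPRED3 over -0.53 to 0.1, and with inducer DUSP7 over -0.11 to 0.02 and SPRED1 over -0.25 to 0.14. The interaction of SPRED2 moved over -0.46 to 0.03.

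Alternatives for the list genes outside the members were added after the data were seen. Depth limits SPRY1, with 1 to 13 counts per library, and DUSP8.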

Other observations

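Replicate 1 held the lowest DUSP5 value in all 4 groups, and the lowest value of DUSP4, DUSP6 and SPRY4 in 3 of 4 groups. For SPRY2, SPRED1 and SPRED3 it was the lowest in 2 groups and the highest in the other two. DUSP2, a phosphatase of the same family known from lymphocytes, had at most 4 counts in any library, and DUSP9 had 2 to 23.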
